A study of Arabidopsis thaliana with 12 samples.

Results

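Of 652 Arabidopsis thaliana genes measured with a probe of their own (653 probes, since AT2G25870 had a pair), 45 are described here whose hybridisation signal was lower in prpl11 than in wild type (WT) on every one of 6 pairs of arrays and by a set margin on average. The members were chosen by these values: a probe had to list exactly 1 gene, be above 0 on all 12 arrays, be lower on the prpl11 array than on the WT array of the same number in all 6 pairs, and have a ratio of the prpl11 mean to the WT mean of at most 0.87, on the deposited values with no new scaling. Lower in all 6 pairs were 85 of the 653 probes (13.0%), and higher in all 6 were 66. All conditions together were met by 48 genes. PRK, AT1G74470 and PSBY were among them and were left out by rule, as were CRR21 and SBPASE, which did not meet the values. Because the same contrast chose the members, their prpl11 and WT values are a description and carry no test.

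The series compared total RNA of WT and of the mutant prpl11, both of ecotype Columbia 0, on 6 arrays each. The mutant lacks PRPL11, and the labels name neither its allele nor the tissue, age or growth conditions. Nothing in the labels says that the 6 arrays of a genotype came from separate plants, so their spread may be technical. Intensities were deposited in arbitrary units, with array sums from 3597 to 3678. PRPL11 had no probe of its own among those used here and could not serve as a check of the genotype labels. The same was true of 9 marker genes of leaf, root, flower and senescing tissue that were looked for, so a tissue could not be checked. In such bulk RNA, fewer cells of a type and less RNA per cell cannot be told apart.

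PRPL11 is a nuclear-encoded protein of the plastid ribosome and part of its large subunit. This ribosome translates the plastid's own mRNAs, among them those for core photosystem subunits and for the large subunit of Rubisco. Most plastid proteins are encoded in the nucleus, made in the cytosol and imported. Nuclear transcript levels are known to respond to the state of the plastid, a route called retrograde signalling.

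The 45 genes spanned ratios from 0.515 to 0.868, with a median of 0.811, while the 653 probes as a whole had a median ratio of 0.999. A ratio of at most 0.7 was found for 9 genes, a ratio above 0.7 and up to 0.8 for 11, and the remaining 25 lay between 0.8 and the limit. Meeting the values of the rule was not rare on these arrays: 7.35% of the 653 probes met them, against 3.68% (24 genes) for the mirrored rule of higher signal in prpl11. Probes with several or no listed gene met it as often, 207 of 2630 (7.87%). The balance of the directions depended on the scaling. Lower genes made up 66.7% of both directions as deposited, 59.7% after dividing each array by its median and 52.1% after quantile normalization.

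The lower genes were mostly bright ones. The WT mean of 27 of the 45 lay in the brightest 25% of the 653 probes, above 0.874, and that of 7 in the dimmest 25%, below 0.378. Their median WT level was 1.14, against 0.588 over all 653. Among the 24 genes of the mirrored rule, 12 also lay in the brightest 25%. The part of signal level in this was not tested.

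**Figure D1:**
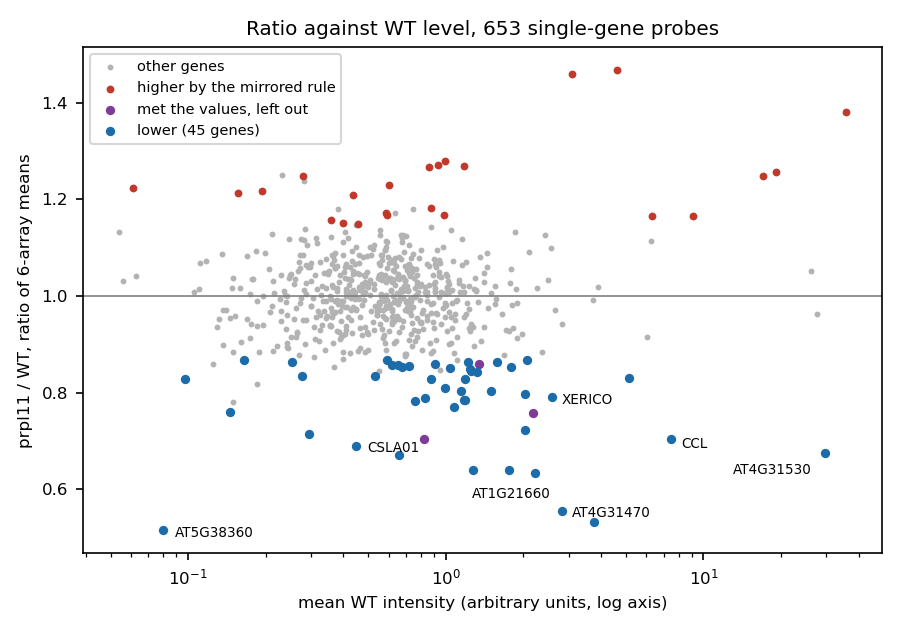
Ratio of the prpl11 mean to the WT mean (linear axis) against the WT mean intensity (log axis, arbitrary units), 1 point for each of 653 single-gene probes. The 45 lower genes lie at or below 0.868, with AT5G38360 at the dim end and AT4G31530 at the bright end.

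Of the 45 genes, 9 carry a symbol in the gene tables used here and 36 only a locus identifier. All 45 are annotated as protein-coding. The 9 symbols fall into hormone and clock genes (XERICO, CCL), stress and calcium genes (MAMI, CML30), carbohydrate and lipid synthesis (CSLA01, LpxA), a DNA glycosylase (DME), a peptidase (TPP2) and AGL26, which is known here by its symbol alone and was put in no function group. None of the 9 symbols names a component of the plastid ribosome or of photosynthesis, PRK and PSBY having been left out. The 36 genes with only a locus identifier were put in no function or compartment group. Whether plastid or photosynthesis genes are among the 36 is therefore not said here. For related genes, 6 lists with 72 genes were drawn up around the 5 genes CCL, CSLA01, XERICO, AT4G31470 and AT1G21660 and around LpxA. The lists around AT4G31470 and AT1G21660 rest on family assignments that the gene tables do not give. Only those 6 genes had a probe of their own, so no other gene of the 6 lists could be set beside them.

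CCL (AT3G26740), the gene CCR-like, whose mRNA is known to be unstable to a degree that the circadian clock controls, was the brightest of the genes with a symbol. Its intensity in WT was 6.87 on the lowest array, 7.30 at the median and 8.22 on the highest, and in prpl11 4.53, 5.49 and 5.79. No prpl11 array reached the lowest WT array. The means were 7.45 ± 0.48 and 5.24 ± 0.53 (SD, n = 6 arrays each), a ratio of 0.704, and the ratios of the 6 pairs ran from 0.641 to 0.761.

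XERICO (AT2G04240) encodes a small RING-H2 protein of the kind found in ubiquitin ligases, and its overexpression is known to raise abscisic acid levels and drought tolerance. Its signal ran from 2.27 over a median of 2.58 to 2.77 in WT and from 1.75 over 2.03 to 2.24 in prpl11. The arrays of the genotypes did not overlap, although the gap between them was narrow. The ratio of means was 0.790, and the 6 pairs differed little, from 0.771 to 0.817.

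CSLA01 (AT4G16590) belongs to the cellulose synthase-like A family, Golgi enzymes that build the mannan backbones of cell wall hemicellulose. It was dim, with 0.408, 0.454 and 0.488 on the lowest, median and highest WT array against 0.251, 0.313 and 0.370 in prpl11. The genotypes did not overlap. The ratio of means was 0.690, but single pairs ranged from 0.615 to 0.826, the shallow ones being pairs 1 and 2.

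LpxA (AT4G29540) encodes the acyltransferase that opens a pathway like that of bacterial lipid A, placed in plants in mitochondria. WT arrays ran from 1.03 over 1.28 to 1.52 and prpl11 arrays from 0.687 over 0.813 to 0.939, without overlap. WT levels varied more than the ratio did: the ratio of means was 0.640 and the pairs lay between 0.597 and 0.676.

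MAMI (AT5G54110) is named as a membrane-associated, mannitol-induced protein and CML30 (AT2G15680) as a member of the calmodulin-like calcium-binding proteins. MAMI gave 1.09, 1.13 and 1.22 on the lowest, median and highest WT array and 0.769, 0.934 and 1.05 in prpl11, a ratio of 0.804 with no overlap. For CML30 the values were 0.849, 0.954 and 1.19 in WT and 0.676, 0.781 and 0.969 in prpl11, a ratio of 0.811. Here the ranges of the genotypes overlapped, although prpl11 was lower within every pair.

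DME (AT5G04560), known as DEMETER, is a DNA glycosylase that removes methylated cytosine and is known for switching on imprinted genes in the seed. Its WT arrays ran from 0.587 over 0.618 to 0.647 and its prpl11 arrays from 0.444 over 0.534 to 0.588, so that the highest prpl11 array just reached the lowest WT one. AGL26 (AT5G26880), listed as AGAMOUS-like 26, had 0.679, 0.712 and 0.783 in WT and 0.555, 0.614 and 0.672 in prpl11. The ratios of both were close to the limit, 0.858 for DME and 0.855 for AGL26.

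TPP2 (AT4G20850), tripeptidyl peptidase II, a large serine protease that takes tripeptides off the ends of peptides, was among the weakest changes. WT arrays ran from 0.204 over 0.258 to 0.287 and prpl11 arrays from 0.190 over 0.215 to 0.249, which overlapped over most of their range. Its ratio was 0.864, with pairs from 0.745 to 0.965.

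**Figure D2:**
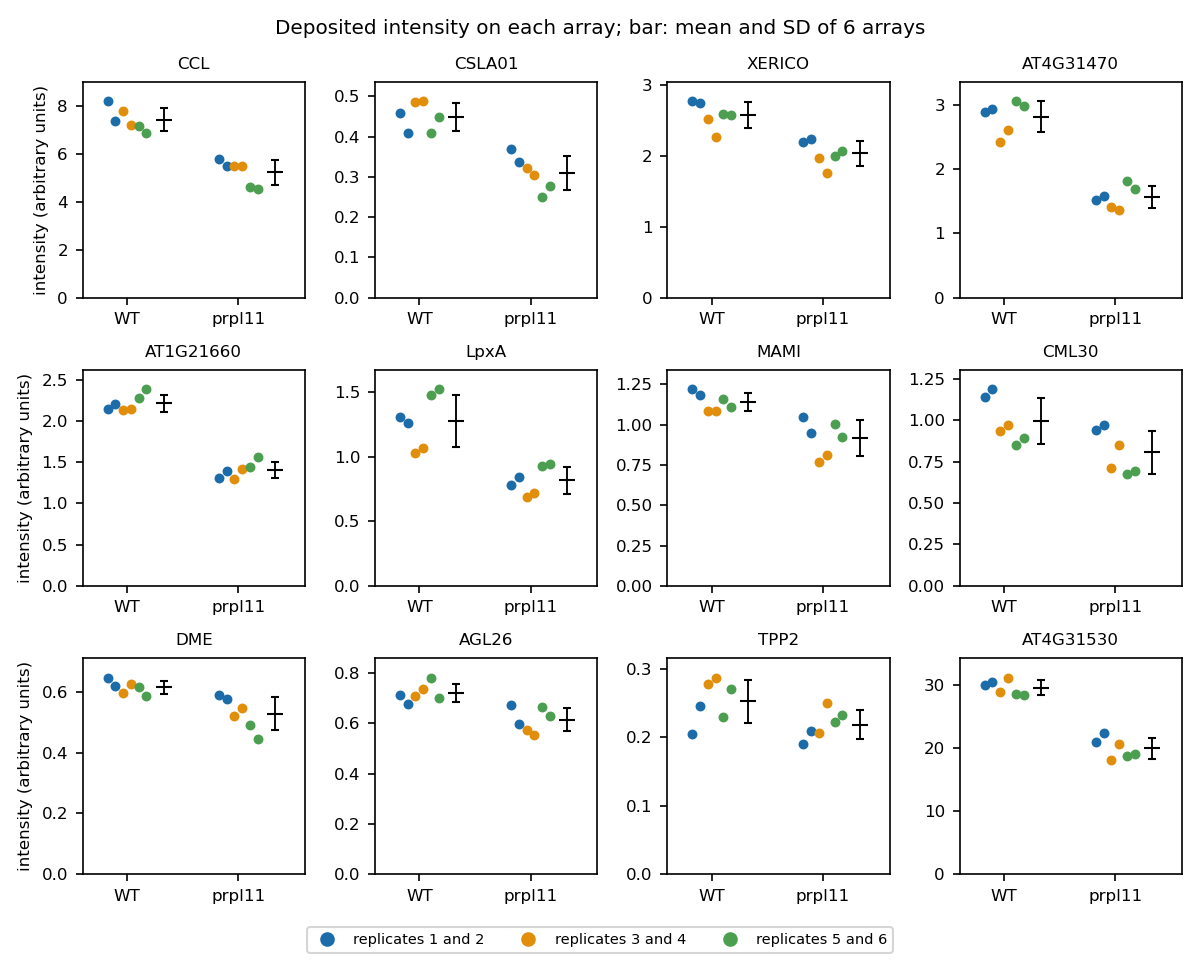
Deposited intensity (arbitrary units, linear axes from 0) on each of 6 WT and 6 prpl11 arrays for the 9 genes with a symbol and for AT4G31470, AT1G21660 and AT4G31530, with the mean and SD of 6 arrays as bars. AT4G31470, AT1G21660 and AT4G31530 are widely apart, from 2.42 against 1.82 at the nearest for AT4G31470, while TPP2 and CML30 overlap.

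The deepest differences were in genes known only by locus. AT3G09080 gave 3.18, 3.51 and 4.57 on the lowest, median and highest WT array and 1.77, 1.87 and 2.46 in prpl11, a ratio of 0.532. AT4G31470 gave 2.42, 2.91 and 3.06 against 1.37, 1.54 and 1.82, a ratio of 0.555. AT1G21660 gave 2.13, 2.18 and 2.38 against 1.2999, 1.40 and 1.57, a ratio of 0.633. In each of these genes the highest prpl11 array stayed clearly under the lowest WT array. The pairs of AT1G21660 lay within 0.610 and 0.659, among the narrowest ranges of the 45.

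AT4G29890 gave 1.48, 1.85 and 1.98 in WT and 0.812, 1.22 and 1.33 in prpl11, a ratio of 0.639. AT4G30740 gave 0.622, 0.661 and 0.701 against 0.399, 0.437 and 0.503, a ratio of 0.672. Neither overlapped between genotypes. AT4G31530 was the brightest of the 45, with 28.4, 29.4 and 31.1 in WT and 18.0, 19.8 and 22.4 in prpl11. Its means of 29.5 ± 1.1 and 19.9 ± 1.6 (SD, n = 6) gave a ratio of 0.675, and it lay at the 99.8th percentile of WT level among the 653 probes. AT4G39760, another bright probe, had 4.51, 4.94 and 6.01 in WT and 3.58, 3.96 and 5.21 in prpl11. That gene overlapped between genotypes, at a ratio of 0.831.

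AT5G38360 had the lowest ratio of all, 0.515, but from one of the dimmest probes. WT arrays ran from 0.0548 over 0.0855 to 0.0914 and prpl11 arrays from 0.0330 over 0.0399 to 0.0503, at the 0.766th percentile of WT level. Its 6 pairs were the most scattered of the 45 genes, from 0.374 to 0.771. No measure of background was used here, so how far these values stand above it is not known.

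The other genes with ratios above 0.7 and up to 0.8 were AT4G05030 (0.715), AT1G13990 (0.723), AT2G31800 (0.761), AT4G31930 (0.770), AT2G04540 (0.783), AT5G06790 (0.784), AT5G52810 (0.785), AT5G46390 (0.789) and AT4G18180 (0.798). Of these, AT1G13990, AT4G31930, AT2G04540, AT5G52810 and AT4G18180 had no overlap between genotypes. AT2G31800 and AT4G05030 were dim, with WT means of 0.145 and 0.293.

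Ratios above 0.8 were found for a further 20 genes with only a locus identifier. From the lowest upward these were AT3G19810 (0.804), AT4G39230 (0.828), AT2G29870 (0.829), AT2G46630 (0.829), AT4G39760, AT1G15140 (0.835), AT2G27680 (0.835), AT4G25290 (0.842), AT1G50880 (0.844) and AT1G49850 (0.850). They went on with AT2G39100 (0.851), AT5G19540 (0.853), AT5G33390 (0.854), AT1G32160 (0.858), AT2G04790 (0.860), AT2G47360 (0.863), AT2G30100 (0.863), AT3G47650 (0.867), AT5G55220 (0.868) and AT3G46950 (0.868). Only AT2G39100 and AT5G33390 among them had separate genotypes, with highest prpl11 arrays of 0.934 and 1.67 under lowest WT arrays of 0.945 and 1.70.

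At the limit, the last genes inside were AT5G55220, with 0.151, 0.161 and 0.189 on the lowest, median and highest WT array and 0.131, 0.137 and 0.177 in prpl11, and AT3G46950, with 0.496, 0.611 and 0.690 against 0.415, 0.510 and 0.617. The nearest genes outside that were also lower in all 6 pairs were AT3G06870, at a ratio of 0.878, and AT4G08940, at 0.880. AT3G06870 had 1.52, 1.71 and 1.85 against 1.296, 1.46 and 1.68, and AT4G08940 had 0.636, 0.655 and 0.811 against 0.533, 0.592 and 0.741. All 4 overlapped between genotypes.

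In all, 20 of the 45 genes had every prpl11 array below every WT array, where 3.37% of the 653 probes did, the left-out PRK included. All 9 genes with a ratio of at most 0.7 were among the 20. The other 25 were lower in every pair and in the mean, but their arrays overlapped between genotypes. In limma, fitted over 3331 probes with Benjamini-Hochberg adjustment, 20 of the 45 passed an adjusted p of 0.05, where 3.06% of all probes were called lower and 2.46% higher. With the replicate number as a block 41 of the 45 passed, where 9.19% were called lower and 10.3% higher. The rule used this contrast, so nothing is read from these counts. Neither fit allowed for the likeness of arrays with neighbouring replicate numbers, which is described below, so the adjusted p-values may be too small. With neighbouring numbers averaged to 3 values per genotype, calls over all probes fell from 102 lower and 82 higher to 16 and 7. How many of the 45 passed in that fit was not counted.

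**Figure D3:**
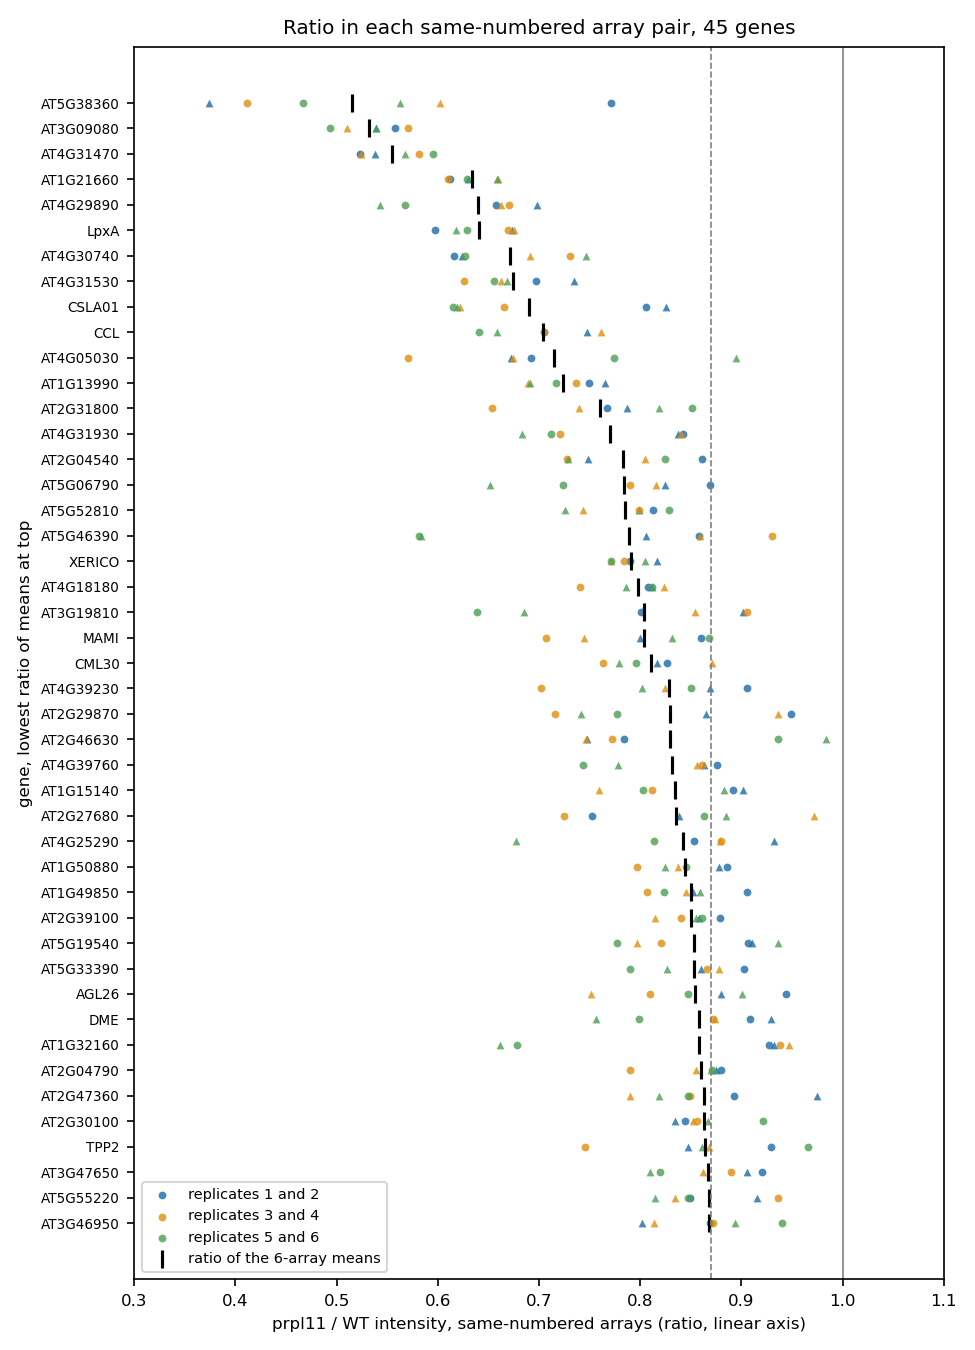
Ratio of prpl11 to WT intensity in each same-numbered pair of arrays (circles, odd numbers; triangles, even numbers; linear axis) for 45 genes, with the ratio of 6-array means as black ticks, the limit of 0.87 dashed and a ratio of 1 solid. Points of AT1G21660 and XERICO lie close together, while those of AT5G38360 run from 0.374 to 0.771.

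The spread between arrays of a genotype was also compared with that of other genes. The coefficient of variation over 6 arrays had a median of 7.87% in WT and 11.7% in prpl11 for the 45 genes, against 8.80% and 10.1% over all 653. It ran from 3.55% to 20.6% in WT and from 4.59% to 33.1% in prpl11.

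Arrays with neighbouring replicate numbers (1 and 2, 3 and 4, 5 and 6) were alike, which makes the 6 pairs closer to 3 sets. Over 3283 probes, log2 values of such neighbours within a genotype differed by a median of 0.08 to 0.09, against 0.13 to 0.20 for other arrays of that genotype. The labels do not say what a set is. A ratio within the limit of 0.87 was reached in all 3 sets by 23 genes, in 2 sets by 13 and in 1 set only by 9.

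The difference between sets was large for a few genes. AT5G46390 had a ratio of 0.582 in replicates 5 and 6 and of 0.832 and 0.894 in the other sets. AT1G32160 had 0.670 in replicates 5 and 6 against 0.930 and 0.943, and AT3G19810 had 0.662 against 0.853 and 0.879. Without replicates 5 and 6 the ratios of these genes, in the same order, were 0.865, 0.936 and 0.866.

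Other genes showed the reverse. AT2G46630 was at 0.960 in replicates 5 and 6, close to no difference, and at 0.766 and 0.759 in the other sets. AT4G05030 was shallowest there too, at 0.829 against 0.681 and 0.619. CSLA01 was shallowest in replicates 1 and 2, at 0.815 against 0.643 and 0.617.

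XERICO, AT4G18180 and AT1G21660 were the steadiest between the sets. The sets of XERICO were at 0.804, 0.778 and 0.788, those of AT4G18180 at 0.810, 0.784 and 0.798 and those of AT1G21660 at 0.621, 0.635 and 0.644. Over the 45 genes the highest and lowest set differed by a median of 0.17 on the log2 scale and by at most 0.62, in AT5G46390.

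**Figure D4:**
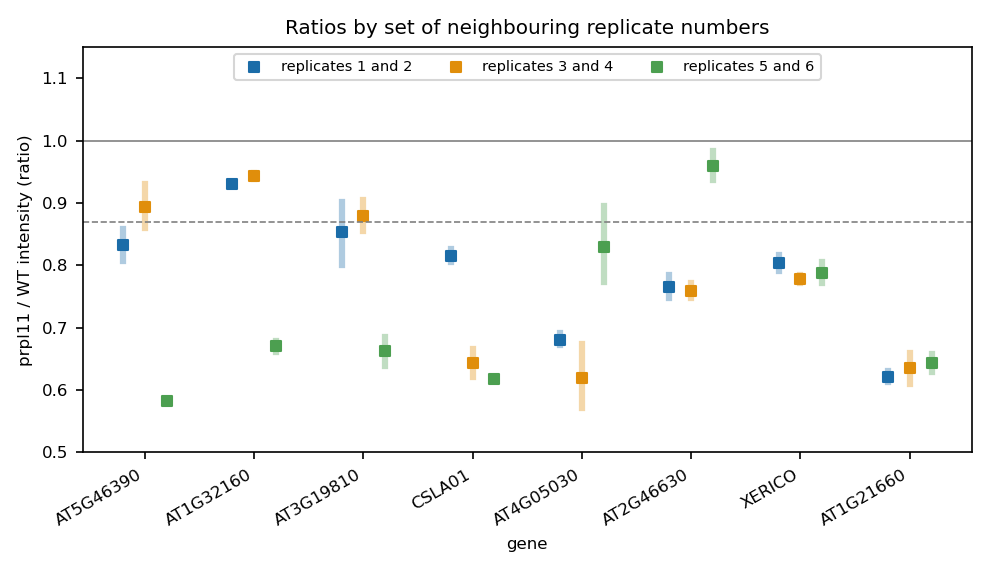
Ratio of prpl11 to WT intensity (linear axis, dashed line at 0.87) in each set of neighbouring replicate numbers (squares, from averaged arrays) for 8 genes, with the range of the pairs in a set as pale bars. AT5G46390, AT1G32160 and AT3G19810 fall to 0.582, 0.670 and 0.662 in replicates 5 and 6, while XERICO and AT1G21660 hold nearly the same ratio in all 3.

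The probes as a whole also differed a little between the sets. The median log2 ratio over the 653 probes was 0.05 in replicates 1 and 2, -0.05 in replicates 3 and 4 and -0.03 in replicates 5 and 6, and the median over the 45 was -0.26, -0.35 and -0.34.

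The 45 genes were spread over all chromosomes, with 6 of 158 measured genes on chromosome 1, 11 of 122 on chromosome 2, 5 of 124 on chromosome 3, 13 of 118 on chromosome 4 and 10 of 129 on chromosome 5. On chromosome 4, 6 of them lay between LpxA and AT4G31930, a stretch of 311 places in gene order in which 11 genes had a probe of their own. In order these 6 were LpxA, AT4G29890, AT4G30740, AT4G31470, AT4G31530 and AT4G31930, with ratios from 0.555 to 0.770.

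The other 5 genes of the stretch showed no such difference. AT4G29750, AT4G30150, AT4G30680, AT4G31060 and AT4G31210 lay between them at ratios of 0.990 to 1.06, and each had pairs on both sides of 1. Of the 10 lowest ratios among the 45 genes, 5 came from this stretch. AT4G31470 and AT4G31530 were 6 places apart, the closest of the 5 pairs of members with no other measured gene between them. The stretch was chosen after its values were seen, with both of its ends set at members, and is a description.

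**Figure D5:**
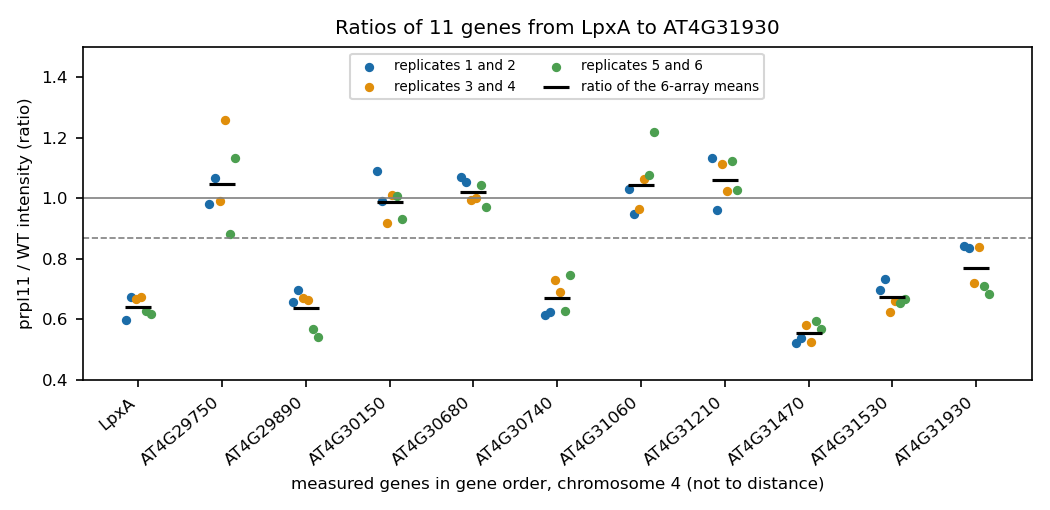
Ratio of prpl11 to WT intensity (linear axis) in the 6 array pairs (points) and of the 6-array means (black bars) for the 11 measured genes from LpxA to AT4G31930, in gene order and not to distance. Ratios of 6 genes lie between 0.555 and 0.770 and those of the other 5 between 0.990 and 1.06.

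Probe number moved with these values. Log2 ratios of probes whose numbers differed by 288 correlated at 0.23 (Pearson, 2450 probe pairs) and by 6 at 0.20 (2601 probe pairs), the highest of the differences from 1 to 300 examined. Probes at those distances are called beside each other here, and the layout itself is not given in the sources used here. A probe beside it that also met the rule was found for 18 of the 44 members with any probe beside them (40.9%), against 21.1% of all single-gene probes with one. The distances were picked by the correlation of these same ratios. A higher share among the members was thereby built in, and nothing is read from it.

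The deepest genes differed in this respect. AT4G31470 and LpxA lay beside each other, and all 3 probes beside AT4G31470 met the rule, at ratios from 0.483 to 0.823. The 2 probes beside AT1G21660 were also beside AT4G31470, so these genes are not separate cases, and had a median ratio of 0.630. Probes beside AT4G30740 had a median of 0.606, those beside AT4G31530 one of 0.681 and those beside AT3G09080 one of 0.872. Of the 10 genes with the lowest ratios, 6 had at least 1 probe beside them that met the rule. The others were AT5G38360, AT4G29890, CSLA01 and CCL, and the median ratios beside CSLA01 and CCL were 1.01 and 0.945. XERICO had 1 of 2 probes beside it meeting the rule, at 0.726. Within the stretch from LpxA to AT4G31930, every member but AT4G29890 had at least 1 probe beside it that met the rule. The part of probe position in the ratios, those of the stretch included, was not tested.

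Of the genes left out by rule, 3 had values in the range of the 45. PRK, the phosphoribulokinase of the Calvin cycle, had a ratio of 0.704, AT1G74470, listed as a geranylgeranyl reductase, 0.759, and PSBY, a photosystem II subunit, 0.859. SBPASE, another Calvin cycle enzyme, at 0.909, and CRR21 at 0.907 lay above the limit and outside that range. Another 8 of the 653 probes had a ratio within the limit without being lower in all 6 pairs, the deepest being AT4G13550 at 0.782.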

How the data were processed

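The authors deposited 1 linear intensity per probe and array for 3439 probes on 12 arrays; per the labels, 6 were WT and 6 prpl11. What array, label and scanner were used and how background was treated is not given in the sources used here, and the scale of the deposited intensities is known only from the values, whose highest is 100. The number of arrays limits the precision.

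Of the probes, 692 had 1 gene in the annotation table, 870 more than that and 1877 none, and 653 of the 692 were above 0 on all arrays. Symbols and gene order came from the TAIR10.1 gene table. The files name no build, so no coordinates are given, and no sequence tables were used here.

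The members and lists were chosen with earlier results of these data known. All members are named. Lowest, median and highest arrays are given for CCL, CSLA01, XERICO, AT4G31470 and AT1G21660, the 10 lowest ratios, the 3 highest WT means, the 2 genes on each side of the limit and genes with a symbol. Function groups were set after the members were known. Ratios were computed with pandas 2.3.3 on deposited values.

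Background counts came from limma 3.58.1 (lmFit and eBayes) in R 4.3.3 on log2 values after setting zeros to the 1st percentile of positive values and quantile normalization, and the fit was tested on simulated data. Deviations from the genotype means correlated between same-numbered arrays at 0.583 to 0.726 over 3283 probes. Arrays of different numbers were not compared in this way. Pairing by number therefore cannot be told apart from pairing by set of neighbouring numbers. The labels state no pairing of the arrays.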

Additional observations from a re-analysis of the deposited data

Results flagged for a closer look

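Among the 90 groups of 6 arrays formed by the 45 genes and both genotypes, 2 contained a value set apart from the other 5. By chance about 1 group in 20, or 4.5, would if the 6 arrays were independent. Arrays with neighbouring replicate numbers were alike, so this rate may not hold here. For AT5G55220, prpl11 replicate 3 read 0.177 against 0.131 to 0.140 on the other prpl11 arrays, a gap of 0.777 of the whole log2 range. For AT2G04540, WT replicate 5 read 0.807 against 0.735 to 0.760 on the other WT arrays, a gap of 0.646 of the range.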

How the results depend on the processing

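After each of 3 rescalings of the arrays the 45 ratios stayed below 1. Sum scaling moved the median log2 ratio over the probes above 0 on all arrays from -0.005 to -0.004. Median scaling moved it to 0.005. The members were chosen at ratios of at most 0.87, so shifts of that size could hardly change the sign. In the alternatives that left out arrays or took geometric means the choice of members fixes that sign. Quantile normalization brought 10 of the 45 ratios closer to 1 by more than the SD of their 6 pairs, and 11 genes no longer met the rule. The 10 became CCL 0.766, XERICO 0.839, AT4G31470 0.590, AT1G21660 0.664 and AT3G09080 0.590. The rest were AT1G13990 at 0.756, AT4G18180 at 0.842, AT4G39760 at 0.912, AT3G47650 at 0.918 and AT5G55220 at 0.922. All but AT5G55220 lay in the brightest 25% of WT level, as did 27 of the 45. The count of 45 became 20 with a limit of 0.80, 20 when every prpl11 array had to lie below every WT array, and 43 to 54 without 1 replicate number. Alternatives added after seeing the data gave 80 without replicates 1 and 2, of which 43 were among the 45, and 27 when members with a probe beside them that met the rule were dropped. The limma counts over all probes, 102 lower and 82 higher, became 306 and 343 with the replicate block and 16 and 7 with neighbouring numbers averaged to 3 values per genotype. Without normalization 130 were called lower and 51 higher. Without 1 replicate number, lower calls ran from 72 to 82 and higher ones from 43 to 55. The replicate block changes no ratio of means. Depth in the sense of counts does not apply, and signal over background is unknown for the dimmest genes. The motif search planned for promoters was not run.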
